A study of Homo sapiens with 12 samples.

Results

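Radiation added to CS2164 was described by comparing 3 libraries of tumours that received both treatments (CS2164_IR) with 3 libraries of tumours that received CS2164 without radiation (CS2164), across all protein-coding genes. These are 6 of the 12 libraries of the series, chosen by their labelled treatment and not by any measured value. By their cell line labels all tumours came from Huh-7, a human cell line of hepatocellular carcinoma. The cells were injected subcutaneously into 6-week-old BALB/c nude mice, which lack a thymus and so have few mature T cells. Treatment started at a mean tumour volume of 150 to 200 mm3. CS2164 was given by oral gavage at 10 mg/kg per day, and mice without CS2164 received its co-solvent. Radiation (IR) was given at 2 Gy per day in 10 fractions on weekdays, and the labels state that all mice were anaesthetised before it. Both compared groups therefore carry the inhibitor and differ by radiation, while the 3 control and 3 IR libraries carry no inhibitor and serve below as reference levels. The labels do not say whether the 3 libraries of a group came from separate mice, so p-values measure the spread between these libraries, which may be partly technical. The interval between the last dose or fraction and the collection of tumours is not given in the sources used here. Cell line labels give Huh-7 for all libraries, while titles give Huh-8 for CS2164, Huh-9 for IR and Huh-10 for CS2164_IR. Which is right was not tested.

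Ionising radiation breaks DNA strands, and irradiated cells classically halt the cell cycle, repair the breaks and, where p53 works, transcribe p53 target genes such as CDKN1A and MDM2. Fractionated doses also change secreted factors, adhesion and metabolism in surviving cells. CS2164, also called chiauranib, inhibits Aurora kinase B, which drives chromosome segregation, together with VEGF receptors, PDGFRA, KIT and CSF1R, which act on vessels, stroma and macrophages. Huh-7 cells keep many functions of hepatocytes, among them secretion of plasma proteins and lipoproteins and active cholesterol and fatty acid synthesis.

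The CS2164 libraries held 16597727, 13981180 and 16119311 counts and the CS2164_IR libraries 12886607, 16890346 and 15937125. Replicate 1 stood apart in both groups: its mean Spearman correlation with its 2 mates was 0.973 in CS2164, where the mates correlated at 0.994, and 0.986 in CS2164_IR, where the mates correlated at 0.993. These are called the 2 distant libraries below. Control replicate 2 also stood apart, at 0.979 with mates at 0.994. Human markers of other cell types took few counts: endothelial markers at most 0.0169% of any of the 6 libraries, fibroblast and pericyte markers 0.0163% and macrophage markers 0.0082%. KDR, FLT1, THY1, POSTN, ADGRE1 and C1QA were at 0 in every library. Host vessels and stroma are of mouse and the handling of mouse reads is not given, so these markers say little about host cells. The liver markers ALB and AFP were among the most abundant transcripts in every library. AURKB was at 58.7, 53.5 and 51.2 CPM (the count relative to the library total, after TMM scaling) in CS2164 and 73.5, 65.8 and 59.7 CPM in CS2164_IR, with a log2 fold change of 0.28 ± 0.13 (SE, adjusted p = 0.175). Of the 7 kinases on which CS2164 acts, PDGFRA was the other one tested, at 0.40 ± 0.21 (adjusted p = 0.235).

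Of 13521 genes tested, 1310 (9.69%) differed between CS2164_IR and CS2164 at an adjusted p under 0.05, 511 (3.78%) higher and 799 (5.91%) lower with radiation. These shares are the reference for all counts of calls in gene lists below. The quasi-likelihood test of edgeR was fitted to all 12 libraries, and p-values were adjusted over all tested genes by the Benjamini-Hochberg method. Most differences were modest: 100 of the higher and 92 of the lower genes reached 2-fold. In 1286 of the 1310 genes the 3 libraries of one group lay entirely above the 3 of the other, which was so in 32.3% of all tested genes (16.7% with CS2164_IR above and 15.5% with it below). Under upper-quartile scaling the split turned to 750 higher and 614 lower. The number of calls depended on single libraries. It was 355 without CS2164_IR replicate 1, 310 without CS2164_IR replicate 3, 841 to 854 without CS2164 replicate 2, CS2164 replicate 3 or CS2164_IR replicate 2, and 2049 without control replicate 2. The account below therefore leads with the 215 genes (1.59% of those tested) called in 1 direction with all libraries and with each of the 12 left out in turn, here named held calls. They comprised 54 genes that rose, with a median log2 fold change of 1.03, and 161 that fell, with a median of -0.893. The plot of fold change against expression shows them across the range of expression.

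**Figure D1:**
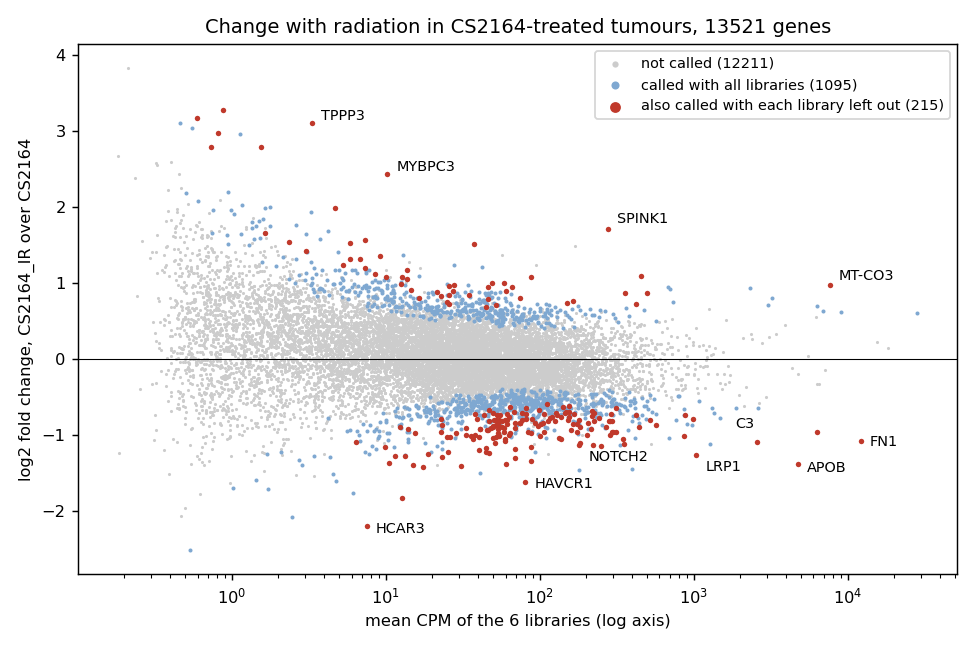
The log2 fold change of CS2164_IR over CS2164 (vertical axis) is plotted against the mean CPM of the 6 libraries (horizontal log axis) for 13521 genes. Blue points are the genes called with all libraries only and red points the 215 that were also called with each library left out, of which 161 lie below 0.

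For most of these genes it was the CS2164 libraries that stood away from the other groups. In 150 of the 161 genes that fell (93.2%), the 3 CS2164 libraries were above all other 9 libraries of the series, compared with 9.43% of all tested genes. In 38 of the 54 genes that rose (70.4%), the 3 CS2164 libraries were below the other 9, compared with 7.51% of all genes. The CS2164_IR libraries were the lowest of all in only 2 of the 161 and the highest of all in 5 of the 54. A second order, in which both irradiated groups lay on one side of both unirradiated groups, was found in 38 of the 161 (23.6%, against 1.57% of all genes) and 21 of the 54 (38.9%, against 1.74%). The 2 orders overlap. A position relative to CS2164_IR was fixed by the choice of these genes, but the control and IR levels took no part in their direction. Choosing genes for a gap between the compared groups also favours extreme values in either of them. The shares over all genes are therefore not a matched comparison. Closer counts come from all tested genes whose 3 CS2164 and 3 CS2164_IR libraries did not overlap. Of 2102 such genes with CS2164 above CS2164_IR, 1275 had CS2164 above the other 9 libraries. Of 2260 with CS2164 below CS2164_IR, 1015 had CS2164 below the other 9.

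For the same genes IR over control lay closer to 0. The genes were chosen for their change with the inhibitor, which favours large values there. That choice by itself favours smaller values in the other contrast, so the medians below do not measure a weaker effect without the inhibitor. The 161 genes that fell had a median log2 change of -0.125 for IR over control, and 114 of them were below 0. The 54 that rose had a median of 0.254, and 43 were above 0. These changes use the other 6 libraries and so share none with CS2164_IR against CS2164. Over all 13521 genes the 2 effects of radiation had a Spearman rho of 0.133, a value across genes, which are not independent. A direct test of the difference between the 2 effects, the interaction term of the same edgeR fit, called 0 genes (0% of 13521) after adjustment, with 2732 at an unadjusted p under 0.05 and a lowest adjusted p of 0.0839. DESeq2 called 639 for that term, and edgeR called 60 with no filter and 67 with GC and length trends removed. Differences between the effects named below are therefore given with their SE and did not pass in the main edgeR fit.

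**Figure D2:**
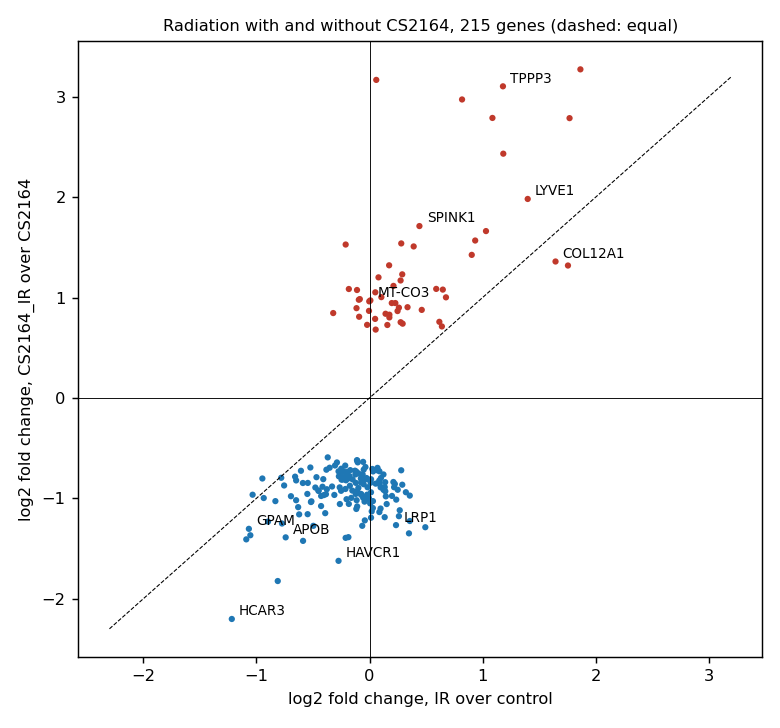
Each point is 1 of the 215 held calls, with its log2 fold change for IR over control on the horizontal axis and for CS2164_IR over CS2164 on the vertical axis. Genes that fell (blue) lie mostly below the dashed line of equal effects and near 0 on the horizontal axis, while LYVE1, COL12A1, GPAM and HCAR3 lie away from 0 on both axes.

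Several genes of the basement membrane and pericellular matrix fell. FN1 encodes fibronectin, a matrix glycoprotein that hepatocytes also secrete into plasma, and it is among the most abundant transcripts of these tumours. Its level was 19291, 14481 and 15793 CPM in CS2164 and 6930, 7968 and 8529 CPM in CS2164_IR, with no overlap. The log2 fold change was -1.08 ± 0.18 (adjusted p = 0.00284). Control tumours stood at 7813 ± 1107 CPM (SD, n = 3) and IR tumours at 7243 ± 682 CPM, so the CS2164 libraries were above all others. The FN1 promoter is shown because FN1 is the most abundant gene that fell; its capitals mark the cyclic AMP response element TGACGTCA, 183 bases before the RefSeq start (GRCh38.p14, chr2:215436019-215436318, minus strand). That motif is held by 3.11% of the 10949 promoters of tested genes in the same window of 250 bases before to 50 after the start, on either strand.
FN1: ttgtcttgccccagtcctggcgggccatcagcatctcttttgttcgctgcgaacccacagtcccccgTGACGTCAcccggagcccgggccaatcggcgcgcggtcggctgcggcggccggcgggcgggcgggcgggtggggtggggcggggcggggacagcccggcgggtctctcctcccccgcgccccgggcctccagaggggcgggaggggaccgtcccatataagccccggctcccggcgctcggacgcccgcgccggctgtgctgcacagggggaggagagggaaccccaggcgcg
NID1, which encodes the basement membrane linker nidogen, was at 1291, 1094 and 1069 CPM in CS2164 and at 531, 631 and 541 CPM in CS2164_IR. Its log2 fold change was -1.02 ± 0.16 (adjusted p = 0.00208). LAMC1, a laminin chain of most basement membranes, went from 383, 347 and 361 CPM to 199, 220 and 203 CPM (-0.81 ± 0.14, adjusted p = 0.00323). Both sets of 3 libraries were separate, and for both genes the control and IR means lay close to CS2164_IR, at 618 and 571 CPM for NID1 and at 213 and 215 CPM for LAMC1. The matrix did not move as one: of 36 tested members of the matrix list, 5 were called lower and 1 higher, with a median of -0.16 against 0.04 over all tested genes. The higher one was COL12A1, a collagen found beside fibrils, described with the rises below. HSPG2, which encodes perlecan, had the steepest fall (-1.46 ± 0.36, adjusted p = 0.0259), but that call ended without CS2164 replicate 1 or 3 or any 1 CS2164_IR library. AGRN (agrin, -0.80 ± 0.19) was lost without CS2164_IR replicate 1 or 3, and without either of these the list held 3 lower calls. Lower calls reached 8 without control replicate 2, and higher calls 4 without CS2164 replicate 1. With trends over GC content and gene length removed the list median was 0.002, with 3 higher and 6 lower calls. FN1, NID1 and LAMC1 were then at -1.01, -0.95 and -0.69 and still called lower.

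**Figure D3:**
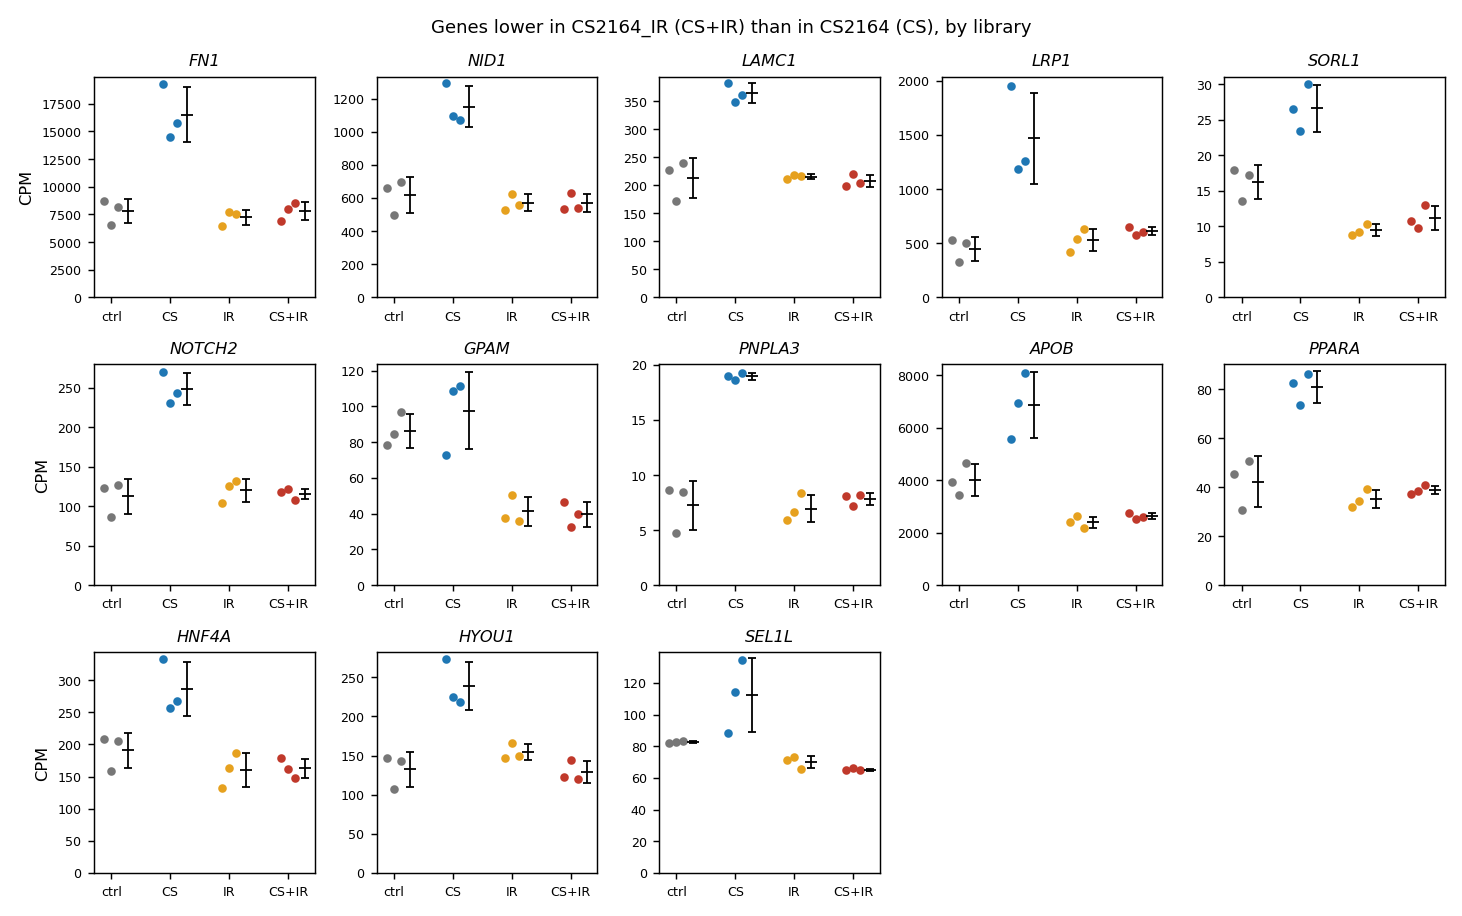
CPM of 13 genes that fell is shown by library (points) for control (ctrl), CS2164 (CS), IR and CS2164_IR (CS+IR), with the mean and SD of 3 libraries; every axis starts at 0. CS2164 has the highest mean in each panel, and FN1 is at 14481 to 19291 CPM in CS2164 and at 6930 to 8529 CPM in CS2164_IR.

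Several receptors of the LDL receptor family fell and none rose. These endocytic receptors take up lipoproteins and many other ligands, and LRP5 and LRP6 are Wnt co-receptors. Of 16 tested members, 6 were called lower and 0 higher (5.91% and 3.78% over all genes). With 1 library left out 4 to 8 were lower, and the median was -0.51. LRP1, the large clearance receptor for apolipoprotein E, proteases and other ligands, was at 1955, 1186 and 1263 CPM in CS2164 and 652, 577 and 601 CPM in CS2164_IR. The log2 fold change was -1.27 ± 0.21 (adjusted p = 0.00308). Its effect of radiation without the inhibitor was 0.23 ± 0.21, and the 2 effects differed by -1.50 ± 0.30. LRP1 overlaps STAT6 on the other strand, and these libraries do not mark strand; STAT6 itself was at 0.06 ± 0.16. SORL1, a sorting receptor of endosomes, went from 26.5, 23.4 and 30.0 CPM to 10.8, 9.73 and 13 CPM (-1.25 ± 0.18, adjusted p = 0.00171), and it was also lower in IR than in control, by -0.77 ± 0.18. LRP10, a family member of the Golgi and endosomes, went from 151, 105 and 93.0 CPM to 61.0, 66.3 and 50.5 CPM (-0.97 ± 0.18, adjusted p = 0.00559). Replicate 1 of CS2164 was the high library for LRP1 and LRP10. LRP5 (-0.87 ± 0.21) and LRP6 (-0.63 ± 0.15) lost their calls without CS2164_IR replicate 1 or 3.

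NOTCH2, a receptor that in liver governs biliary fate, fell. It was at 270, 231 and 244 CPM in CS2164 and 117, 121 and 108 CPM in CS2164_IR (-1.10 ± 0.15, adjusted p = 0.00171), beside 112 ± 22.1 CPM in control. Other Notch genes went both ways. Of 19 tested, 3 were called lower and 3 higher, beside 5.91% and 3.78% over all genes. Every call but NOTCH2 ended with some library left out, with 1 call in each direction without CS2164_IR replicate 1 or 3. Higher calls were also 1 without CS2164 replicate 2 or 3 or CS2164_IR replicate 2. The target gene HES1, a repressor, was higher at 58.0, 64.3 and 65.2 CPM against 39.6, 32.6 and 34.8 CPM (0.81 ± 0.17, adjusted p = 0.0107), although not without CS2164_IR replicate 3. The ligand JAG1 was at 0.67 ± 0.17 (adjusted p = 0.02), lost without CS2164 replicate 2 or 3 or CS2164_IR replicate 1 or 2, and it was 1.05 ± 0.17 higher in IR than in control. NOTCH1 was at -0.89 ± 0.24 (adjusted p = 0.0262), and that call ended without CS2164 replicate 1 or any 1 CS2164_IR library.

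Adhesion receptors gave mostly lower calls, none of which held. Of 32 tested, 7 were lower and 1 was higher (5.91% and 3.78% over all genes), and the median was -0.30. Lower calls were 3 without CS2164_IR replicate 1, 1 without CS2164_IR replicate 3 and 11 without control replicate 2. ITGA2, a collagen-binding integrin chain, went from 33.6, 39.8 and 48.0 CPM to 17.9, 22.8 and 23.4 CPM (-0.92 ± 0.19, adjusted p = 0.00979), lost only without CS2164_IR replicate 1. FAT1, a giant protocadherin, went from 103, 111 and 116 CPM to 61.3, 59.4 and 52.4 CPM (-0.93 ± 0.20, adjusted p = 0.0107), lost only without CS2164_IR replicate 3. The 1 higher call was EPCAM, an epithelial adhesion molecule of liver progenitors (0.61 ± 0.18, adjusted p = 0.0406), lost without any of control replicate 1, CS2164 replicates 1 and 2, IR replicates 2 and 3 and CS2164_IR replicates 1 and 3.

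Several genes of fatty acid and triglyceride synthesis fell. Of 24 tested members 10 were lower and 0 higher (5.91% of all genes were lower), and the median was -0.41. The count was 6 without CS2164 replicate 2, CS2164 replicate 3 or CS2164_IR replicate 2, 5 without CS2164_IR replicate 1, 3 without CS2164_IR replicate 3 and 7 without both distant libraries. The 3 held calls acted at different steps. GPAM, which starts glycerolipid synthesis at mitochondria, was at 72.9, 109 and 111 CPM in CS2164 and 46.5, 32.6 and 39.8 CPM in CS2164_IR (-1.30 ± 0.19, adjusted p = 0.00171). For IR over control GPAM was at -1.07 ± 0.19. PNPLA3, a lipid droplet protein known for a variant tied to fatty liver, stood at 19, 18.6 and 19.3 CPM and then at 8.12, 7.21 and 8.22 CPM (-1.27 ± 0.22, adjusted p = 0.00346). In IR over control PNPLA3 was at -0.06 ± 0.23, and it overlaps SAMM50 on the same strand, which was at 0.18 ± 0.15. SCD, the stearoyl-CoA desaturase, went from 1234, 1312 and 1227 CPM to 623, 795 and 768 CPM (-0.79 ± 0.14, adjusted p = 0.00441). FASN, the fatty acid synthase, went from 1493, 1083 and 941 CPM to 633, 714 and 590 CPM (-0.86 ± 0.19, adjusted p = 0.0131), lost without CS2164_IR replicate 1 or 3. The gene for their regulator SREBF1 was not called (-0.31 ± 0.15, adjusted p = 0.185).

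In the cholesterol list 6 of 26 tested genes were lower and 0 higher (5.91% and 3.78% over all genes), with a median of -0.17. Of these 6 falls 2 held. Lower calls were 3 without CS2164_IR replicate 1 or 2 and 2 without CS2164_IR replicate 3. SCAP, the sterol-sensing escort of SREBP proteins, was at 419, 311 and 320 CPM in CS2164 and 239, 228 and 219 CPM in CS2164_IR (-0.61 ± 0.15, adjusted p = 0.0181), and its call ended without any 1 CS2164_IR library. The 2 groups did not overlap. Of 25 tested genes of fatty acid oxidation and ketogenesis, 2 were lower, CPT1A and CPT2, the carnitine palmitoyltransferases. CPT1A lost its call without CS2164 replicate 1 or any 1 CS2164_IR library, and CPT2 without any 1 library except control replicates 1 and 2.

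Secreted hepatocyte proteins gave calls in both directions. Of 43 tested, 5 were lower and 2 higher, beside 5.91% and 3.78% over all genes. Of the 5 falls 4 held, and 4 to 6 were lower with 1 library left out. APOB, the structural protein of VLDL and LDL, was at 5551, 6936 and 8062 CPM in CS2164 and 2744, 2524 and 2578 CPM in CS2164_IR (-1.39 ± 0.18, adjusted p = 0.00171), and it was lower in IR than in control by -0.74 ± 0.17. AHSG, the plasma protein fetuin-A, went from 9790, 7309 and 7887 CPM to 5225, 3150 and 4431 CPM (-0.96 ± 0.21, adjusted p = 0.0105), with a near equal effect of radiation alone, -1.03 ± 0.21. C3, the central complement component, went from 5097, 2679 and 2810 CPM to 1661, 1454 and 1833 CPM (-1.10 ± 0.23, adjusted p = 0.00885), while control and IR stood at 1297 ± 200 and 1324 ± 274 CPM. CS2164 replicate 1 was the high library for C3, and with 1 library left out the change was as small as -0.74. F5, coagulation factor V, fell by 0.73 ± 0.15 on the log2 scale (adjusted p = 0.00788). ALB was not called, at 12542, 17748 and 21688 CPM in CS2164 and 25345, 14413 and 17604 CPM in CS2164_IR (0.14 ± 0.22, adjusted p = 0.718), and neither was AFP (0.23 ± 0.23, adjusted p = 0.548). The groups overlapped for ALB, an abundant liver transcript. TTR, which encodes transthyretin, was higher (0.95 ± 0.23, adjusted p = 0.0188), but the call ended without CS2164 replicate 2 or CS2164_IR replicate 1, the library that read 1396 CPM beside 560 and 734 CPM. CYP2E1, a cytochrome P450 at under 3 CPM, was the second higher call (1.5 ± 0.44, adjusted p = 0.0393), and without CS2164 replicate 2 or CS2164_IR replicate 1 the list had 0 higher calls. Higher calls there were 1 without control replicate 1, CS2164 replicate 3 or CS2164_IR replicate 3, and 5 without CS2164_IR replicate 2.

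Transcription factors of hepatocytes included 3 that fell. Of 25 tested factors 3 were lower and 0 higher, all 3 held, and the median was -0.18. HNF4A, a master regulator of the hepatocyte programme, was at 334, 256 and 268 CPM in CS2164 and 178, 162 and 148 CPM in CS2164_IR (-0.81 ± 0.16, adjusted p = 0.0073). PPARA, the fatty acid sensor that drives oxidation genes, went from 82.4, 73.6 and 86.2 CPM to 37.2, 38.5 and 40.7 CPM (-1.06 ± 0.17, adjusted p = 0.00237). RXRA, its dimer partner, changed by -0.81 ± 0.14 (adjusted p = 0.00366). The 3 genes had control means of 191, 42.2 and 231 CPM, all below their CS2164 libraries. IGF2, the fetal growth factor, fell the most among 18 tested oncofetal markers, from 115, 64.5 and 85.0 CPM to 26.7, 39.0 and 35.0 CPM (-1.39 ± 0.27, adjusted p = 0.0072). It overlaps the readthrough INS-IGF2, which had a mean count of 0. That list had 3 lower and 3 higher calls, and 1 lower call without CS2164_IR replicate 3. Higher calls there were 1 without CS2164 replicate 2, CS2164_IR replicate 1 or CS2164_IR replicate 3.

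Among 32 tested genes of the unfolded protein response, 6 were lower and 0 higher (5.91% and 3.78% over all genes). The median was -0.24. The 3 held falls were CREB3L2, a membrane-bound transcription factor of secretory cells (-0.93 ± 0.14, adjusted p = 0.00194), HYOU1, a chaperone of the endoplasmic reticulum (-0.89 ± 0.15, adjusted p = 0.00299), and SEL1L, an adaptor of its degradation machinery (-0.79 ± 0.14, adjusted p = 0.00469). HYOU1 was at 274, 225 and 218 CPM in CS2164 and 123, 145 and 119 CPM in CS2164_IR, beside 132 ± 22.1 CPM in control. The stress sensors ERN1 (-0.66 ± 0.17) and ATF6 (-0.49 ± 0.14) were called lower but not without CS2164_IR replicate 1 or 2, and without the first of these 3 members of the list were lower. ATF6 was also lost without CS2164 replicate 2 or 3, IR replicate 2 or 3 or CS2164_IR replicate 3. The classical reporter HSPA5, the chaperone BiP, did not pass (-0.38 ± 0.17, adjusted p = 0.155), nor did DDIT3 (0.50 ± 0.32, adjusted p = 0.329). Of 31 tested NRF2 targets, an antioxidant programme, 1 was lower, GSR, the glutathione reductase (-0.55 ± 0.15, adjusted p = 0.0315), lost without CS2164 replicate 2 or CS2164_IR replicate 1 or 3. In a search chosen after the values were seen, the endoplasmic reticulum stress element (CCAAT and CCACG spaced by 9 bases, either strand) was found in 0.137% of all promoters and in 6 of 31 promoters of the unfolded protein response list. It was in none of the promoters of the 6 members that fell, but most of the other members lacked it too. The difference was not tested.

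Hypoxia and glycolysis genes gave no held call. Of 38 tested hypoxia genes 3 were lower and 1 higher (5.91% and 3.78% over all genes), with 0 lower without CS2164_IR replicate 1. Higher calls there were 0 without CS2164 replicate 2 or 3 or CS2164_IR replicate 1 or 3, and 2 without control replicate 2. NDRG1, a stress-responsive gene raised in hypoxia, was at -1.12 ± 0.29 (adjusted p = 0.0243). EPAS1, an oxygen-regulated transcription factor, was at -0.71 ± 0.15 (adjusted p = 0.00881), and EGLN1, an oxygen-sensing hydroxylase, at -0.89 ± 0.20 (adjusted p = 0.0139). PKLR, the liver pyruvate kinase, was at -1.27 ± 0.26 with the inhibitor (adjusted p = 0.00885), lost without CS2164_IR replicate 3, and at -1.25 ± 0.27 for IR over control, and it overlaps HCN3 on the other strand. Of 18 tested glycolysis genes 2 were lower, PKLR and PFKL, a phosphofructokinase, with 1 without CS2164 replicate 1, CS2164_IR replicate 1 or CS2164_IR replicate 2 and 0 without CS2164_IR replicate 3. The medians of -0.15 and -0.44 became 0.19 and 0.02 without the 2 distant libraries. VEGFA, the main hypoxia-induced vessel growth factor, was at 379, 195 and 195 CPM and at 180, 258 and 348 CPM, which overlap (0.03 ± 0.26, adjusted p = 0.955).

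In a smaller set of 38 held falls all 6 unirradiated libraries were above all 6 irradiated ones. HCAR3, a receptor for hydroxylated fatty acids, was at 20.8, 8.45 and 8.06 CPM in CS2164 and 1.35, 2.92 and 3.70 CPM in CS2164_IR (-2.20 ± 0.40, adjusted p = 0.00441). CS2164 replicate 1 was the high library, and the change was -1.61 without it and -1.32 without both distant libraries. IR over control was at -1.22 ± 0.41. NPTX2, a secreted pentraxin of neurons, was at -1.82 ± 0.29 with the inhibitor and -0.81 ± 0.29 without it. KANK4, a cytoskeletal adaptor, was at -1.41 ± 0.21 and -1.09 ± 0.21, and ALDH1L1, a folate enzyme of liver, at -1.37 ± 0.26 and -1.05 ± 0.26. CD38, an enzyme that consumes NAD and was chosen after its values were seen, went from 64.5, 75.4 and 56.9 CPM to 23.5, 25.8 and 34.4 CPM, beside 51.4 ± 4.86 CPM in control and 27.6 ± 0.249 CPM in IR. GPAM, APOB, SORL1, AHSG, CREB3L2 and SEL1L, described above, had the same order. HAVCR1, a cell surface receptor known as a marker of kidney injury, did not: it went from 147, 100 and 119 CPM to 25.7, 42.3 and 50.5 CPM (-1.62 ± 0.23, adjusted p = 0.00171), with 39.7 ± 9.49 CPM in control. CLDN19, a tight junction claudin (-1.42 ± 0.22), LRRC3 (-1.39 ± 0.25) and MTSS2 (-1.35 ± 0.27) completed the largest held falls. MTSS2 was not called without the 2 distant libraries.

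Among genes with at least 5 CPM in the higher group, most of the largest held rises started from low levels in CS2164. TPPP3, a tubulin polymerisation protein, went from 0.981, 0.433 and 0.630 CPM to 8.36, 2.98 and 6.65 CPM (3.10 ± 0.58, adjusted p = 0.00554). MYBPC3, the myosin-binding protein C of heart muscle, went from 2.48, 3.46 and 3.59 CPM to 34.7, 9.33 and 8.03 CPM (2.43 ± 0.47, adjusted p = 0.00859), and without CS2164_IR replicate 1, the high library, the change was 1.45. LYVE1, a hyaluronan receptor used as a marker of lymphatic vessels, went from 1.31, 2.17 and 2.21 CPM to 7.00, 8.47 and 6.97 CPM (1.98 ± 0.30, adjusted p = 0.00195). IR stood at 7.70 ± 2.73 CPM and control at 2.92 ± 0.626 CPM, and all 6 irradiated libraries were above all 6 unirradiated ones. SPINK1, a secreted trypsin inhibitor raised in many liver cancers, went from 106, 124 and 162 CPM to 666, 241 and 378 CPM (1.71 ± 0.28, adjusted p = 0.0028), and the change was 1.11 without the 2 distant libraries. COL12A1 went from 4.18, 5.63 and 5.54 CPM to 19, 9.68 and 10.9 CPM (1.36 ± 0.27, adjusted p = 0.00804), and ACTN3, a sarcomeric actinin, from 5.17, 3.32 and 3.09 CPM to 12.6, 8.87 and 7.59 CPM (1.32 ± 0.27, adjusted p = 0.00859). For IR over control COL12A1 was at 1.65 ± 0.28 and ACTN3 at 1.75 ± 0.28. The COL12A1 call ended without the 2 distant libraries. ARPC1A, an actin nucleation subunit that overlaps a readthrough gene on the same strand (1.53 ± 0.29), and PFDN5, a prefoldin subunit (1.32 ± 0.23), were also among the 10 largest.

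Of the 4 ID genes, which encode inhibitors of basic helix-loop-helix factors and are classical BMP targets, 3 rose. ID4 was among the 10 largest held rises and the others were chosen after their values were seen. ID1 went from 332, 288 and 260 CPM to 567, 676 and 627 CPM (1.09 ± 0.16, adjusted p = 0.00171). ID3 went from 131, 120 and 117 CPM to 202, 235 and 186 CPM (0.76 ± 0.15, adjusted p = 0.00739), and ID4 from 2.81, 4.19 and 4.09 CPM to 9.95, 12.4 and 10.5 CPM (1.57 ± 0.23, adjusted p = 0.00175). For all 3 the 6 irradiated libraries lay above the 6 unirradiated ones, with IR over control at 0.59 ± 0.16, 0.62 ± 0.15 and 0.93 ± 0.22. ID2 did not pass (0.24 ± 0.25, adjusted p = 0.566), and neither did the BMP and TGF-beta feedback genes SMAD6 (0.33 ± 0.16, adjusted p = 0.176) and SMAD7 (0.41 ± 0.15, adjusted p = 0.0894).

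**Figure D4:**
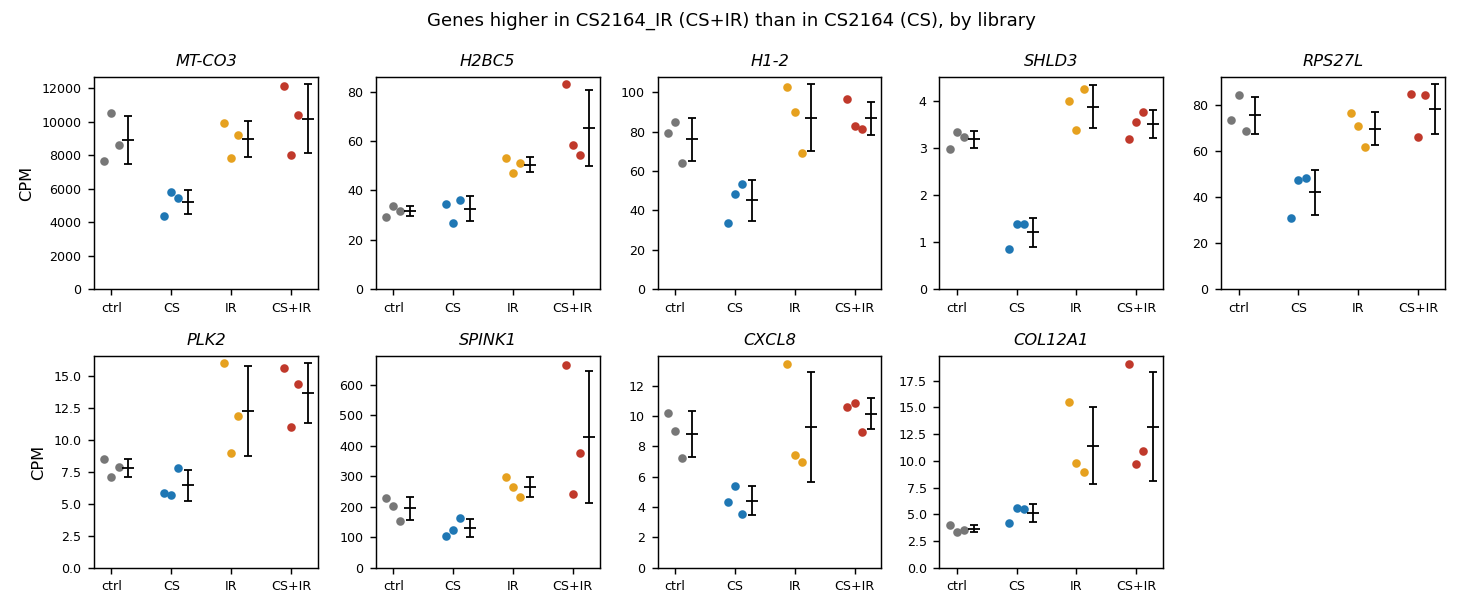
CPM of 9 genes that rose is shown by library (points) for control (ctrl), CS2164 (CS), IR and CS2164_IR (CS+IR), with the mean and SD of 3 libraries; every axis starts at 0. MT-CO3, SHLD3 and RPS27L are lowest in CS2164, while H2BC5, PLK2 and COL12A1 are high in both irradiated groups.

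Replication-dependent histone genes leaned higher. Their transcripts normally end in a stem-loop without a poly-A tail, so poly-A libraries catch only a part of them. Of 54 listed, 29 were tested, 25 of these had a log2 fold change above 0, and 3 were called higher (2 to 5 with 1 library left out, 5 without control replicate 2). The median was 0.53, and for IR over control it was also 0.53. H2BC5, an H2B gene, went from 34.7, 26.8 and 36.1 CPM to 83.0, 58.4 and 54.4 CPM (1.00 ± 0.17, adjusted p = 0.00308). H1-2, a linker histone gene, went from 33.4, 48.4 and 53.5 CPM to 96.5, 82.8 and 81.3 CPM (0.94 ± 0.18, adjusted p = 0.00667). H2BC5 was at 31.6 ± 2.15 CPM in control and 50.5 ± 3.00 CPM in IR, whereas H1-2 was at 76.0 ± 10.7 and 87.1 ± 17 CPM, so CS2164 was the low group for H1-2 only. Both genes are short. With trends over GC content and gene length removed the list median was 0.21, with 1 higher and 1 lower call, and H1-2 was no longer called. The promoters of both genes are printed because they rose in a list that shares a promoter element: CCAAT, in capitals on either strand, was in 24 of 28 histone promoters (85.7%) and in 36.6% of all 10949. H2BC5 (GRCh38.p14, chr6:26157871-26158170, plus strand) holds 4 matches and H1-2 (chr6:26056421-26056720, minus strand) holds 1.
H2BC5: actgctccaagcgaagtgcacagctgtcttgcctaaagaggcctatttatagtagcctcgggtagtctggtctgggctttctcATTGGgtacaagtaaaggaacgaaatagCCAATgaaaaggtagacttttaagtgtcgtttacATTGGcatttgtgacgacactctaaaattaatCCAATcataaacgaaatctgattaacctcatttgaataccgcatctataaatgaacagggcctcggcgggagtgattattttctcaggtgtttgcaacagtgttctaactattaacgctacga
H1-2: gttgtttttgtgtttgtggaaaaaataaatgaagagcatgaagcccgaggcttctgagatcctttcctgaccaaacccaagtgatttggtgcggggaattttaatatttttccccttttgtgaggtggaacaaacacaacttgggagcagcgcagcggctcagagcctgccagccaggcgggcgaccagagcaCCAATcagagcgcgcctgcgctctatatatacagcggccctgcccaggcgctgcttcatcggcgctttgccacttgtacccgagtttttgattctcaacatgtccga

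Transcripts of the mitochondrial genome took a larger share of counts with radiation. They made up 5.13%, 5.74% and 5.92% of the CS2164 libraries and 10.6%, 7.89% and 9.26% of the CS2164_IR libraries, with no overlap, beside 7.82% ± 0.992 in control and 8.78% ± 1.08 in IR. An exact 2-sided permutation test of 3 against 3 cannot go below p = 0.1, the value reached here. Of 13 mitochondrially encoded genes 10 were called higher and 0 lower, with a median of 0.69. The count was 4 without CS2164 replicate 2, 5 without CS2164 replicate 1 or 3, 1 without CS2164_IR replicate 1 and 2 without CS2164_IR replicate 3. MT-CO3, a subunit of cytochrome oxidase that overlaps MT-ATP6 on the same strand, held: 4382, 5783 and 5408 CPM became 12116, 8004 and 10416 CPM (0.97 ± 0.20, adjusted p = 0.00809). With GC and length trends removed the list median was 0.21, and 1 of the 13 was called. Nuclear-encoded respiratory subunits leaned the same way, with 64 of 75 above 0, a median of 0.38, 9 higher calls and 1 lower. With GC and length trends removed that median was 0.18, with 8 higher calls and 5 lower. Their higher calls were 22 without control replicate 2, 1 without CS2164 replicate 3 and 0 without CS2164_IR replicate 1 or 3, and the lower call was also lost without either of these.

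Other housekeeping lists had positive medians and no held call. Over all genes 3.78% were called higher and 5.91% lower. The median was 0.25 over 74 mitochondrial ribosomal proteins (9 higher, 0 lower), 0.30 over 40 proteasome genes (5 higher, 1 lower) and 0.22 over 79 cytosolic ribosomal proteins (2 higher, 0 lower). With GC and length trends removed the medians were 0.07, 0.13 and 0.07, with 5 higher and 6 lower, 5 higher and 2 lower, and 2 higher and 0 lower calls. Without CS2164_IR replicate 3 each of the 3 lists had 0 higher calls, and without control replicate 2 they had 14, 14 and 11. Without CS2164_IR replicate 1 they had 3, 0 and 0, without CS2164_IR replicate 2 they had 5, 2 and 1, without CS2164 replicate 2 they had 5, 3 and 1, and without CS2164 replicate 3 they had 3, 2 and 0. The fold change varied with gene length across all tested genes. Spearman's rho with length was -0.291 (n = 13521 genes), and the median length of the higher genes was 3788 bases and of the lower genes 7887 bases, against 5236 over all. GC content had a rho of -0.113. The part of RNA quality in this was not tested. With both trends removed 213 of the 215 held calls were still called in the same direction.

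Genes of the classical response to DNA damage moved in both directions. The state of p53 in these tumours was not examined, so these genes do not tell whether p53 acted. Of 31 tested p53 targets 3 were higher and 2 lower, against 3.78% and 5.91% of all genes, and the 2 lower calls, XPC and BTG2, were lost without any 1 CS2164_IR or IR library, CS2164 replicate 2 or 3 or control replicate 1. Of 36 listed, 5 did not pass the filter on low counts. CDKN1A was at 30.7, 30.8 and 26.1 CPM in CS2164 and 24.0, 20.1 and 24.6 CPM in CS2164_IR, which did not pass (-0.35 ± 0.18, adjusted p = 0.214). MDM2 overlapped between groups (0.21 ± 0.17, adjusted p = 0.458). The held rises were RPS27L, a ribosomal protein paralog (0.89 ± 0.17, adjusted p = 0.00667), and PLK2, a stress-induced polo-like kinase (1.08 ± 0.23, adjusted p = 0.0103). RPS27L went from 30.7, 47.4 and 47.9 CPM to 84.4, 65.7 and 84.3 CPM, with 75.4 ± 8.12 CPM in control. PLK2 went from 5.82, 5.70 and 7.81 CPM to 15.6, 11.1 and 14.4 CPM, beside 7.84 ± 0.710 CPM in control and 12.3 ± 3.52 CPM in IR, and its call ended without the 2 distant libraries. GADD45A, a damage and stress gene, was at 0.89 ± 0.22 (adjusted p = 0.0187), lost without CS2164 replicate 2 or 3 or CS2164_IR replicate 1 or 3. Without control replicate 2 the list had 5 higher calls.

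In the lists of DNA repair genes most calls depended on single libraries, and the counts below stand beside 3.78% higher and 5.91% lower over all genes. SHLD3, a shieldin subunit that protects broken ends for end joining, was the single held call in 3 lists of repair genes. It went from 0.850, 1.37 and 1.39 CPM to 3.18, 3.55 and 3.77 CPM (1.54 ± 0.29, adjusted p = 0.00603), against 3.18 ± 0.180 CPM in control, and it overlaps TRAPPC13 on the same strand, which was at 0.59 ± 0.24 (adjusted p = 0.122). PRKDC, the kinase of end joining, was called lower (-0.76 ± 0.16, adjusted p = 0.00972), and so was PARP1, the sensor of strand breaks (-0.57 ± 0.13, adjusted p = 0.0152). Both calls ended without CS2164_IR replicate 1 or 3. The end joining list had 2 higher calls and 1 lower among 22 tested genes, and 1 higher and 0 lower without either of these libraries. Its lower calls were 2 without control replicate 2 or CS2164 replicate 1. Of 48 tested genes of homologous recombination and the Fanconi pathway 2 were higher, EME1 and SEM1, and 0 lower; both were lost without CS2164_IR replicate 1 or 3. Higher calls in that list were 1 without CS2164 replicate 2 or 3 and 4 without CS2164 replicate 1. Of 45 tested genes of base, nucleotide and mismatch repair 2 were higher and 4 lower, with 0 in both directions without CS2164_IR replicate 1 or 3, 1 lower without CS2164 replicate 2 and 4 higher without control replicate 2. Of 32 checkpoint genes 1 was higher, PPP2CA, a phosphatase subunit (0.56 ± 0.17, adjusted p = 0.044), and of 34 apoptosis regulators 1 was lower, BMF, a pro-apoptotic BH3 protein (-0.57 ± 0.18, adjusted p = 0.0494). Neither was called without any 1 CS2164_IR library. PPP2CA was also lost without any 1 CS2164 or IR library. BMF was also lost without control replicate 3, CS2164 replicate 1 or 3 or IR replicate 2 or 3.

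Among cell cycle genes the counts of calls depended on the processing. Of 60 mitosis genes 1 was higher and 3 lower (median -0.03, or 0.03 under upper-quartile scaling), and of 60 replication genes 1 was higher and 2 lower (median 0.04). With GC and length trends removed mitosis had 1 higher and 8 lower calls (median -0.16) and replication 4 higher and 12 lower (median -0.06). Without both distant libraries the medians were -0.13 and -0.03. MKI67, the proliferation marker Ki-67, was at 277, 365 and 400 CPM in CS2164 and 175, 214 and 166 CPM in CS2164_IR (-0.91 ± 0.22, adjusted p = 0.017). UBE2C, a ubiquitin-conjugating enzyme of mitotic exit, differed in the other direction, at 0.53 ± 0.15 (adjusted p = 0.0315). MCM2, a subunit of the replicative helicase, went from 275, 229 and 206 CPM to 112, 145 and 101 CPM (-0.99 ± 0.21, adjusted p = 0.0114), in a gene that overlaps TPRA1 on the other strand. None of these calls held: MCM2 was lost without CS2164_IR replicate 1 or 3, MKI67 also without CS2164 replicate 3, and UBE2C without CS2164 replicate 2 or 3 or any 1 CS2164_IR library. Lower mitosis calls were 10 without CS2164 replicate 1, 5 without control replicate 2 and 0 without CS2164_IR replicate 3, and lower replication calls were 8, 7 and 0. Without CS2164 replicate 3 or CS2164_IR replicate 1 there was 1 lower mitosis call. Lower replication calls were 1 without CS2164 replicate 2 and 0 without CS2164_IR replicate 1. PTTG1, the separase inhibitor securin, did not pass (0.51 ± 0.18, adjusted p = 0.0788).

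Among 23 tested cytokines and chemokines 4 were higher and 0 lower, and CXCL8 was the held call. CXCL8 encodes interleukin-8, which attracts neutrophils. It went from 4.32, 5.41 and 3.53 CPM to 10.6, 10.9 and 8.97 CPM (1.20 ± 0.26, adjusted p = 0.0115), beside 8.80 ± 1.51 CPM in control and 9.28 ± 3.62 CPM in IR. With GC and length trends removed it was not called. Higher calls in the list were 1 without CS2164 replicate 2 or CS2164_IR replicate 1 and 2 without any 1 IR library or CS2164_IR replicate 2. The CXCL8 promoter, shown because CXCL8 rose from the lowest levels of all 4 groups, holds 1 copy of the AP-1 element TGANTCA, in capitals, 137 bases before the start (GRCh38.p14, chr4:73740319-73740618, plus strand). The element is in 4.59% of all promoters. Of 31 tested AP-1, early stress and MAP kinase phosphatase genes 1 was higher, DUSP4 (0.90 ± 0.21, adjusted p = 0.0146), lost without CS2164 replicate 2 or CS2164_IR replicate 1 or 3. Higher calls in that list were 5 without CS2164 replicate 1, 3 without control replicate 2, 2 without CS2164_IR replicate 2 and 0 without CS2164 replicate 2 or CS2164_IR replicate 3.
CXCL8: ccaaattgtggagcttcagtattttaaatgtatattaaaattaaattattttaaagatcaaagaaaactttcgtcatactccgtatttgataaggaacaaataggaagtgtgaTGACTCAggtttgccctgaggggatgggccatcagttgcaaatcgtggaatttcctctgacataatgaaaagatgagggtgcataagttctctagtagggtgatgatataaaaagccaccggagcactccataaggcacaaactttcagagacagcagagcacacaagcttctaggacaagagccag

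Calls in the other immune and vascular lists stand beside 3.78% higher and 5.91% lower over all genes. Of 36 tested interferon-stimulated genes 1 was lower, OAS3, an antiviral synthetase (-0.58 ± 0.16, adjusted p = 0.0266), and of 19 genes of MHC class I presentation 1 was lower, TAPBP, the peptide-loading factor tapasin (-0.82 ± 0.20, adjusted p = 0.0181). Both were lost without CS2164_IR replicate 1 or 3, and OAS3 also without CS2164 replicate 2 or CS2164_IR replicate 2. Without CS2164 replicate 1 the interferon list had 4 higher calls, and without that library or control replicate 2 the MHC list had 2 lower and 1 higher. Of 25 angiogenesis factors and receptors 2 were higher, the vasoconstrictor EDN1 and the growth factor PDGFA, and 1 lower, ANGPTL8, a regulator of lipoprotein lipase that was at -2.08 ± 0.47 with the inhibitor and -2.01 ± 0.48 without it. Levels of ANGPTL8 were low, with means of 4.00 CPM in CS2164 and 0.947 CPM in CS2164_IR, and it overlaps DOCK6 on the other strand. ANGPTL8 was lost without CS2164_IR replicate 1, and the 2 higher calls were lost without CS2164 replicate 2 or 3 or CS2164_IR replicate 1 or 3, EDN1 also without CS2164 replicate 1, control replicate 1 or IR replicate 2 or 3. In bulk tumours, fewer cells of a type and less RNA per cell cannot be told apart. Among tested markers of other cells, 0 of 3 endothelial, 0 of 4 macrophage and 0 of 4 lymphoid genes were called. CSPG4, a pericyte marker, was lower (-0.77 ± 0.24, adjusted p = 0.0492), lost without any 1 library except control replicate 2 and CS2164 replicate 3, and the keratin KRT10 was higher (0.82 ± 0.17, adjusted p = 0.00885), lost without CS2164_IR replicate 3.

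**Figure D5:**
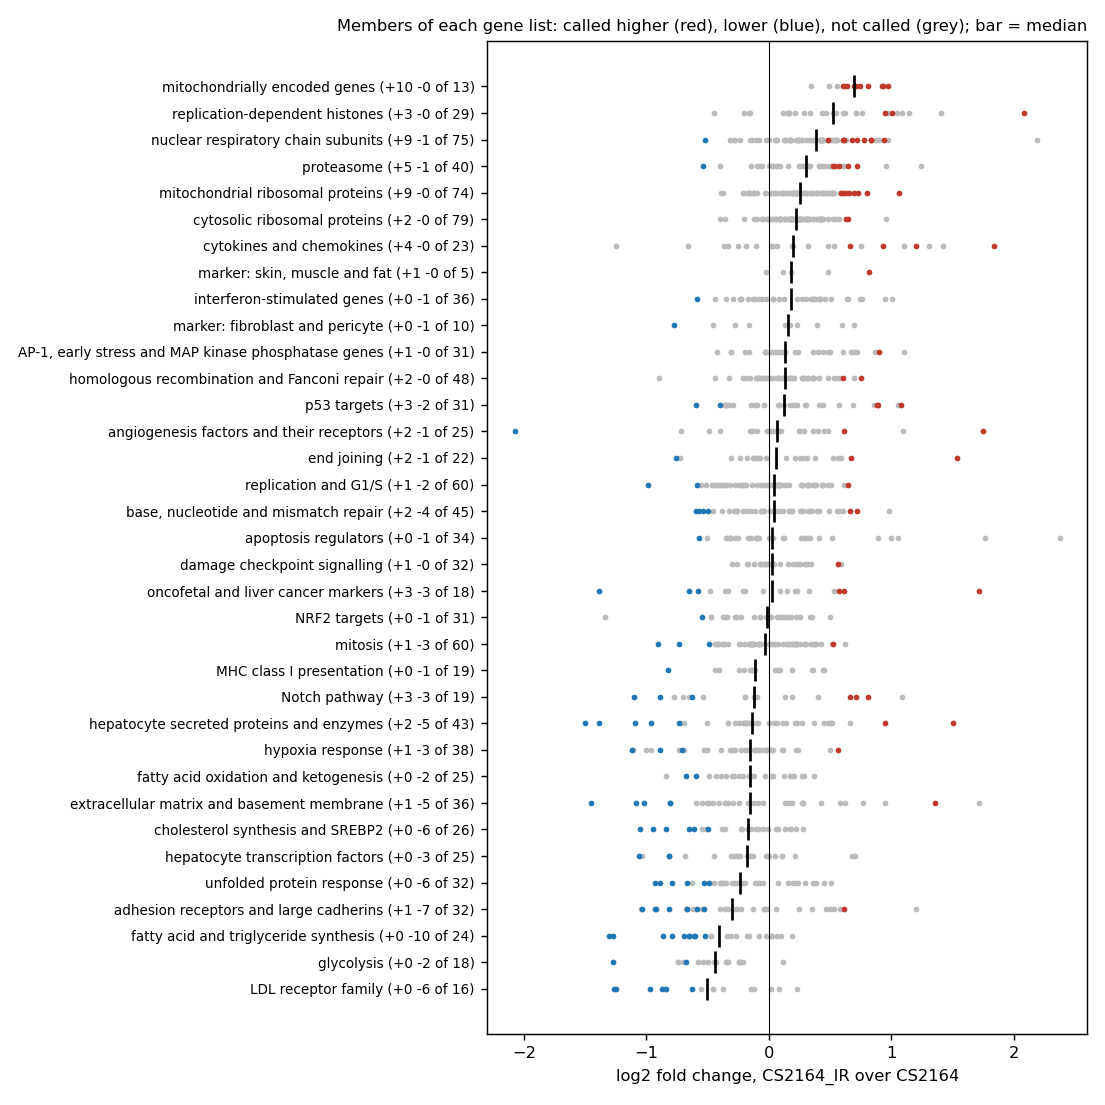
Each row is a gene list with at least 5 tested members, ordered by median; points are members by log2 fold change of CS2164_IR over CS2164, red if called higher, blue if called lower and grey if not called, and the bar is the median. Mitochondrially encoded genes have the highest median, 0.69, and the LDL receptor family the lowest, -0.51.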

How the data were processed

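The 12 poly-A RNA libraries, which do not mark strand, were made from xenograft tumours, with 3 libraries in each of 4 groups. Per the submitters' processing notes, the authors used HISAT2 2.1.0, HTSeq 0.9.1 and the build GRCh38. No annotation release is given in the sources used here, nor how mouse reads were handled. For 19988 genes the deposited file holds read counts and FPKM per library, per the file headers. All tests used the count columns, which sum to 12886607 to 16890346 per library. From the FPKM of the authors only gene length was derived.

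A symbol was found for 19941 genes, and 13521 passed filterByExpr. One quasi-likelihood model of edgeR 4.0.16 (R 4.3.3), with TMM scaling, robust estimation and a coefficient per group, was fitted to all 12 libraries. CPM were computed from the counts after that scaling. An SE is the log2 fold change divided by the square root of its F statistic. Promoters came from RefSeq (GRCh38.p14) and matched 927 of 1163 tested list members. GC content, and overlaps between genes, came from GENCODE annotation of GRCh38. The 40 lists held 1342 genes, of which 1338 were found by symbol. Lists and genes were chosen with earlier results of these data known.

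Named genes were the 10 largest held rises and 10 largest held falls with a mean of at least 5 CPM in the higher group, the 5 most abundant held calls, up to 3 held calls of each list by adjusted p (else up to 2 calls, or 1 tested member), and AURKB, CDKN1A, MDM2, ALB, AFP, FN1, PTTG1, DUSP4, COL12A1 and MT-CO3. Some genes that this rule names are not reported here. Other members that were called, or are classical members of a list, were added after their values were seen. Alternatives changed the scaling (RLE, upper quartile), the filter (none, or a mean of at least 1 CPM), the tool (limma voom 3.58.1, DESeq2 1.42.0) and the model (a block for replicate number, the compared groups alone, a 2-fold minimum, GC and length trends removed). Others left out each library in turn, or both distant libraries.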

Additional observations from a re-analysis of the deposited data

How the results depend on the processing

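The 1310 genes called in CS2164_IR against CS2164 became 2537 with GC and length trends removed, of which 1164 were called in the same direction by both fits, 834 with the compared groups alone, and 0 with a 2-fold minimum, where 111 genes had an unadjusted p under 0.05. With 1 library left out the count ranged from 310 to 2049. It stayed within 1.5 times of 1310 with RLE (1344) or upper-quartile (1364) scaling, unfiltered (1370), with a mean of at least 1 CPM (1323), and with limma voom (1226), DESeq2 (1911) and without both distant libraries (885, of which 586 were shared). For the difference between the 2 effects of radiation, 0 genes were called by the main edgeR fit. Other edgeR fits called 60 with no filter and 67 with GC and length trends removed. DESeq2 called 639 and limma voom 0. With 1 library left out 0 to 1 were called, the 1 without control replicate 2.

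Replicate numbers did not pair the libraries: the correlations of deviations for numbers 1 to 3 were -0.084, 0.111 and -0.111. With the replicate number as a block, 1059 genes were called. Of the 91 genes named by the rule, ALB and AFP, which were not called, changed sign under some alternatives. ALB (0.14) was at -0.07 with GC and length trends removed, -0.05 without CS2164 replicate 1, -0.11 without CS2164_IR replicate 1 and -0.30 without both distant libraries, and AFP (0.23) was at -0.05 with the trends removed and -0.12 without both distant libraries. The other 89 kept their sign under every alternative run. Among the held calls of that set, all were lost with the 2-fold minimum, COL12A1, PLK2 and MTSS2 without both distant libraries, and H1-2 and CXCL8 with GC and length trends removed, and none under the other alternatives. With GC and length trends removed the changes of MT-CO3 and SHLD3 were 0.50 and 1.01, and lower calls became 13 in the cholesterol list, 12 in the unfolded protein response and 11 among hepatocyte secreted proteins and enzymes, up from 6, 6 and 5. The causes were not tested. With 3 libraries per group, low genes such as TPPP3, at under 1 CPM in CS2164, have the widest errors.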
